A study of Mus musculus with 6 samples.

Results

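NF-κB is a family of transcription factors that drives inflammatory and survival genes in macrophages. The genes described here encode its subunits (Nfkb1, Nfkb2, Rel, Rela and Relb) and the inhibitors that these factors themselves can switch on, namely the IκB proteins (Nfkbia, Nfkbie and Nfkbiz) and the A20 module (Tnfaip3 and Tnip1). Nfkbiz is counted with the inhibitors by its family, although its protein acts as a nuclear coactivator. They were selected by name, through probe sets assigned to a single gene, and a gene with several probe sets would have been represented by the most variable of them. Of the 10 genes, 9 had such a probe set, exactly 1 each, among 19938 genes tested. Nfkb1 was not analysed here because the annotation used assigned no probe set to it.

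RAW264.7, a mouse macrophage-like cell line, received by transfection either a mimic of miR-342-3p or a scrambled negative control mimic. RNA was collected 18 h later from wells plated with 500000 cells, and Affymetrix whole-transcript arrays were hybridized for 3 samples of each group, with 150 ng of RNA entering the labeling. The control group thus received a foreign small RNA and transfection reagent as well, and the groups differed in the sequence of the mimic. A mimic is a synthetic RNA that bypasses the natural production of the microRNA. The arrays do not measure the level it reached or its uptake per cell, and the line is a single transformed population. The legend of a heatmap in the study calls the samples of a group independent experiments, but the labels do not say so, and the p-values may measure technical spread in part.

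In resting cells the dimers of NF-κB subunits are held in the cytoplasm by IκB proteins. Signals from Toll-like and tumor necrosis factor receptors activate the IκB kinase, IκB is degraded and the dimers enter the nucleus. There they induce cytokines and also Nfkbia, Nfkbie and Tnfaip3, whose products end the response, so that the mRNA of these inhibitors is commonly read as a trace of NF-κB activity. The question addressed by the comparison is which mRNAs changed with more miR-342-3p in the cell.

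The microRNA that the mimic stands for is given first, from RefSeq (GRCm38.p6, chr12:108658680-108658702, plus strand), because it is the only intended difference between the groups. Its seed, bases 2 to 8, is in capitals.
mmu-miR-342-3p: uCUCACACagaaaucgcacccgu
No other of the 1679 mature mouse microRNAs in the table carried this seed. Target sites in the transcripts of the NF-κB genes were not searched here.

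NF-κB dimers bind the κB consensus, a motif of 10 bases that occurs in the promoters of several of these genes. RefSeq promoter windows (250 bases before and 50 bases after a transcript start, GRCm38.p6) were found for 7 of the 10 genes, and Nfkb1, Relb and Nfkbiz had no entry. The consensus was searched on both strands as the pattern GGGRNNYYCC, where R is A or G, Y is C or T and N is any base. Overlapping matches were joined into 1 place, and a match on the opposite strand is shown as it reads in the window. At least 1 window held a match for 6 of the 7 genes (Nfkb2, Rel, Nfkbia, Nfkbie, Tnfaip3 and Tnip1), beside 11.0% of the genes tested that had a window. Counted by window, 8 of their 10 windows held one, beside 8.46% of all 32851 windows. The windows of the pair of genes that rose are shown first, followed by those of Nfkbia and Tnip1, which had matches too and did not pass the test. Capitals mark the matches.
Tnfaip3, chr10:19015361-19015660, minus strand: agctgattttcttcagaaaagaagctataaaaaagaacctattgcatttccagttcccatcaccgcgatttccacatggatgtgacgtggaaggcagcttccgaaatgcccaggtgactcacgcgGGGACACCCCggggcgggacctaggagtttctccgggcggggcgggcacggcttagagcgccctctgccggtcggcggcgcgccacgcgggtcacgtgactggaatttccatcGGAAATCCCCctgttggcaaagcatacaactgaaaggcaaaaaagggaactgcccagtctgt
Nfkbie, chr17:45555450-45555749, plus strand: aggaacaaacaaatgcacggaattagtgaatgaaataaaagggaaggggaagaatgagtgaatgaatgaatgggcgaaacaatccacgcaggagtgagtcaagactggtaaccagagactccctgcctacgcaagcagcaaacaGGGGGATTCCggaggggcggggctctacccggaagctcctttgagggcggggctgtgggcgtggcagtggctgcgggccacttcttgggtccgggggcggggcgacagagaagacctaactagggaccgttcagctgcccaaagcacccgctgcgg
Nfkbia, chr12:55492598-55492897, minus strand: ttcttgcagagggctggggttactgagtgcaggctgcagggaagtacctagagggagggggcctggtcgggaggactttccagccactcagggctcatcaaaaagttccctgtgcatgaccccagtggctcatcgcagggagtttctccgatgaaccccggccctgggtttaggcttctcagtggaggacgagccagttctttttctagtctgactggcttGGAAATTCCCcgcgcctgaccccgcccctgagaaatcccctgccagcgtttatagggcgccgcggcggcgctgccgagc
Tnip1, chr11:54962891-54963190, minus strand: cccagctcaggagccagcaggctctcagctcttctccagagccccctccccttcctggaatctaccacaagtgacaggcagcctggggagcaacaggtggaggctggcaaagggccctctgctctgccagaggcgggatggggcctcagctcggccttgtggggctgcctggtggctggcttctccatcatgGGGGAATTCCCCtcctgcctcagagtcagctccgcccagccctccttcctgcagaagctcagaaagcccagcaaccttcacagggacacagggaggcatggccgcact
In the Tnfaip3 window the nearer match ran from 12 to 3 bases before the start (GGAAATCCCC) and the farther one began 125 bases before it. The match of Nfkbie began 106, that of Nfkbia 29 and that of Tnip1 58 bases before the start. Rel had 1 joined match (GGGAAATCCCC, beginning 92 bases before the start), and 3 windows of Nfkb2, which overlap in part, held matches such as GGGACTTTCC. The Rela window and a second window of Tnfaip3, at another start, held no match to the pattern. Among the 15614 genes tested that had a window, 4.19% were higher and 7.64% lower in miR-342-3p-transfected cells. Among the 1713 genes with a match, 5.31% were higher and 7.41% lower. A match is a description of the letters and says nothing on binding in these cells.

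Of the 9 genes measured, Tnfaip3 and Nfkbie were upregulated in miR-342-3p-transfected macrophages, none was downregulated and 7 did not pass the test. Both encode inhibitors, and no subunit was called. The increases were modest, 1.35-fold for Tnfaip3 and 1.31-fold for Nfkbie. Over all genes tested 11.6% were called at the false discovery rate (FDR) of under 0.1 that the study used, with 4.14% higher and 7.42% lower. By limma at an unadjusted p under 0.05, 6 of the 9 genes were higher and none lower, beside 25.5% of all genes in either direction. Of all 19938 genes, 2502 were higher and 2584 lower at that threshold. The study's methods name limma for these arrays and Student's t-test for group comparisons in general. That t-test (the methods' t-test below), without a moderated spread, called none of the 9 after adjustment. Of all genes it called 26 higher and 22 lower. Changes are given on the log2 scale as miR-342-3p minus control, and the levels are the log2 values deposited by the authors after robust multi-array averaging (RMA), which are comparable between arrays for a gene but not between genes.

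Tnfaip3 encodes A20, a ubiquitin-editing enzyme that shuts off signaling from tumor necrosis factor and Toll-like receptors to the IκB kinase. Its log2 values were 7.35, 7.40 and 7.33 in control replicates 1, 2 and 3, and 7.83, 7.90 and 7.64 in miR-342-3p replicates 1, 2 and 3. All miR-342-3p arrays lay above all control arrays. The log2 fold change was 0.43 (standard error 0.087, 95% interval 0.23 to 0.63, limma FDR = 0.0315). This rise ranked 286 of the 19938 genes. With any 1 of the 6 arrays left out the change was 0.37 to 0.51. Without any 1 control array the gene was no longer called (FDR of at most 0.151). Those fits called far fewer of all genes, 88 to 100 higher and 102 to 140 lower, against 825 and 1479 with all 6 arrays.

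Nfkbie encodes IκBε, which retains mainly Rela and c-Rel dimers in the cytoplasm and is resynthesized after activation. It measured 8.56, 8.53 and 8.58 in the control arrays and 8.88, 9.07 and 8.91 in the miR-342-3p arrays. The groups did not overlap, and the gap between them was wider than the range within either group. The log2 fold change was 0.39 (standard error 0.079, 95% interval 0.21 to 0.57, limma FDR = 0.0315). It likewise lost its call without any 1 control array (FDR of at most 0.162), with changes from 0.34 to 0.43 when 1 array was left out.

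**Figure D1:**
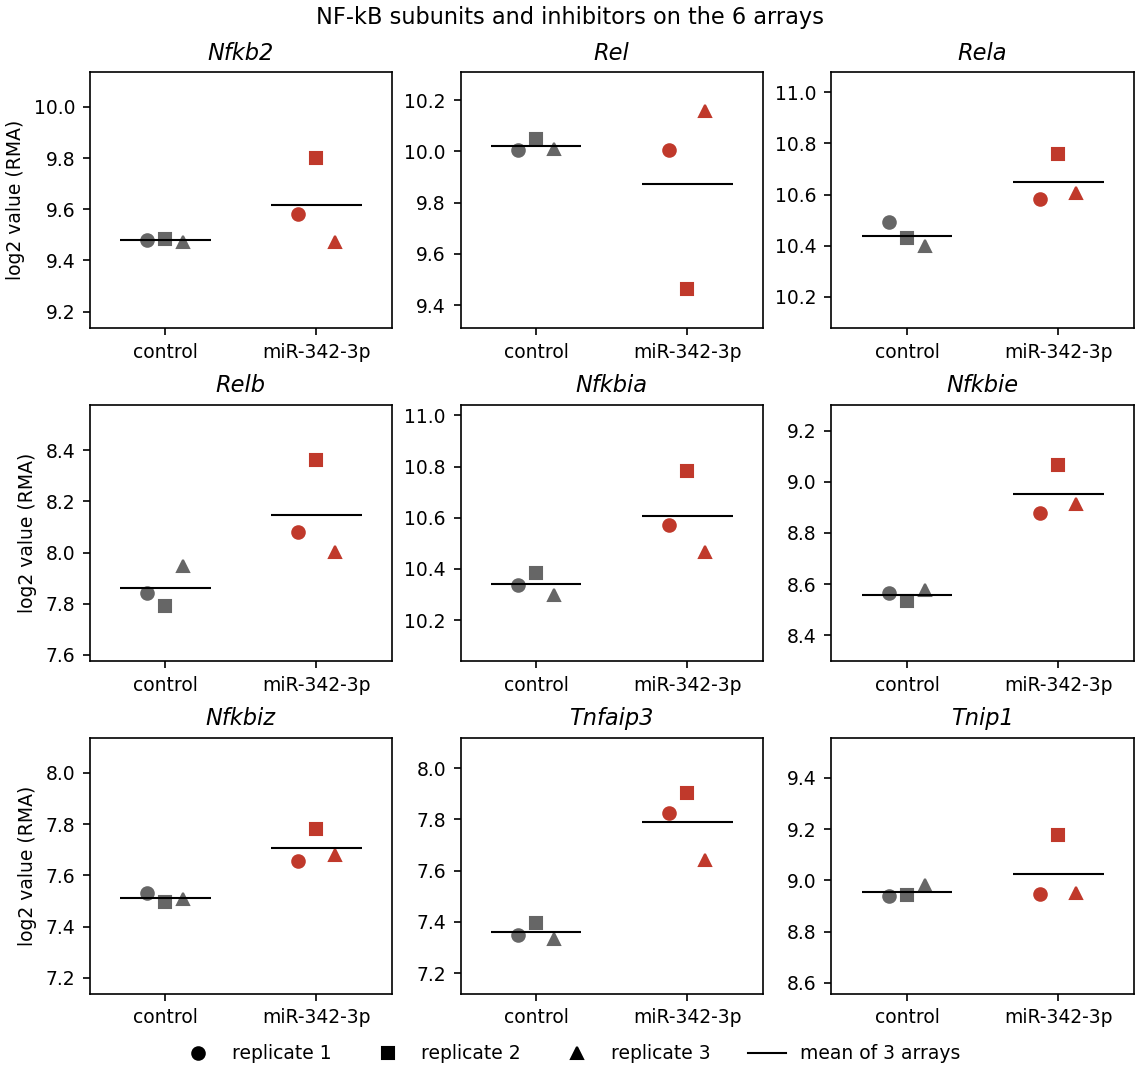
Log2 values (RMA) of the 9 NF-κB genes with a probe set, with 1 symbol per array, grey for control and red for miR-342-3p, the shape giving the replicate, and a black line at the mean of 3 arrays; each panel spans 1 log2 unit. The groups are separate for Rela, Relb, Nfkbia, Nfkbie, Nfkbiz and Tnfaip3, and for Rel replicate 2 lies at 9.46, below all other arrays.

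Nfkbia, which encodes IκBα, the classical inhibitor that is rapidly rebuilt after each pulse of NF-κB, measured 10.34, 10.38 and 10.30 in the control arrays. The miR-342-3p arrays were at 10.57, 10.78 and 10.46. All were above the controls, replicate 2 the most and replicate 3 the least. The log2 fold change of 0.27 (standard error 0.094, 95% interval 0.051 to 0.48) had an FDR of 0.131 by limma and did not pass the test. Without miR-342-3p replicate 3 it was called (log2 fold change 0.34, FDR = 0.0536), as it was in 3 of 16 alternative fits. The fit without replicate 3 called 2104 of all genes higher, against 825 with all arrays.

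Nfkbiz encodes IκBζ, a nuclear IκB protein that acts as a coactivator of a second wave of inflammatory genes rather than as a cytoplasmic brake. Its values were 7.53, 7.50 and 7.51 in control cells and 7.66, 7.78 and 7.68 in miR-342-3p-transfected cells. These groups were separate too, by a small distance, and the log2 fold change of 0.19 (standard error 0.074) had an FDR of 0.149 by limma. Tnip1 encodes ABIN1, an adaptor that brings A20 to ubiquitin chains. It measured 8.94, 8.94 and 8.98 in the control arrays and 8.95, 9.18 and 8.95 in the miR-342-3p arrays. Only replicate 2 stood above the controls, the log2 fold change was 0.069 with a 95% interval from -0.13 to 0.26 (limma FDR = 0.600), and without that array it was -0.0067.

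Among the subunits, Rela encodes p65, the main transactivating subunit of the canonical pathway. It measured 10.49, 10.43 and 10.40 in the control arrays and 10.58, 10.76 and 10.61 in the miR-342-3p arrays. The groups were separate, by less than the range within the controls, and the log2 fold change of 0.21 (standard error 0.080, 95% interval 0.027 to 0.39) had an FDR of 0.15 by limma. Relb, the transactivating subunit of the noncanonical pathway and itself an NF-κB target, measured 7.84, 7.79 and 7.95 in the control and 8.080, 8.362 and 8.003 in the miR-342-3p arrays. Replicate 3 was close to the highest control. The log2 fold change was 0.29 (standard error 0.11, 95% interval 0.050 to 0.53, limma FDR = 0.138), and without replicate 3 the gene was called (log2 fold change 0.36, FDR = 0.0681). As stated for Nfkbia, that fit called 2104 of all genes higher, against 825.

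Nfkb2 encodes p100, which is both an inhibitor and the precursor of p52, the partner of Relb. It was at 9.48, 9.48 and 9.47 in control cells and at 9.58, 9.80 and 9.47 in miR-342-3p-transfected cells. Replicate 3 fell within the control range, and the log2 fold change was 0.14 with a 95% interval from -0.076 to 0.35 (limma FDR = 0.358). Rel encodes c-Rel, a subunit with a role in cytokine induction of myeloid and lymphoid cells. It was at 10.007, 10.047 and 10.009 in control cells and at 10.0045, 9.461 and 10.158 in miR-342-3p-transfected cells. Of the 9 genes it alone had a negative estimate (-0.15, standard error 0.16, 95% interval -0.51 to 0.21, limma FDR = 0.548). That estimate came from replicate 2, and it was 0.060 without it. The interval includes falls as large as the rises of Tnfaip3 and Nfkbie.

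**Figure D2:**
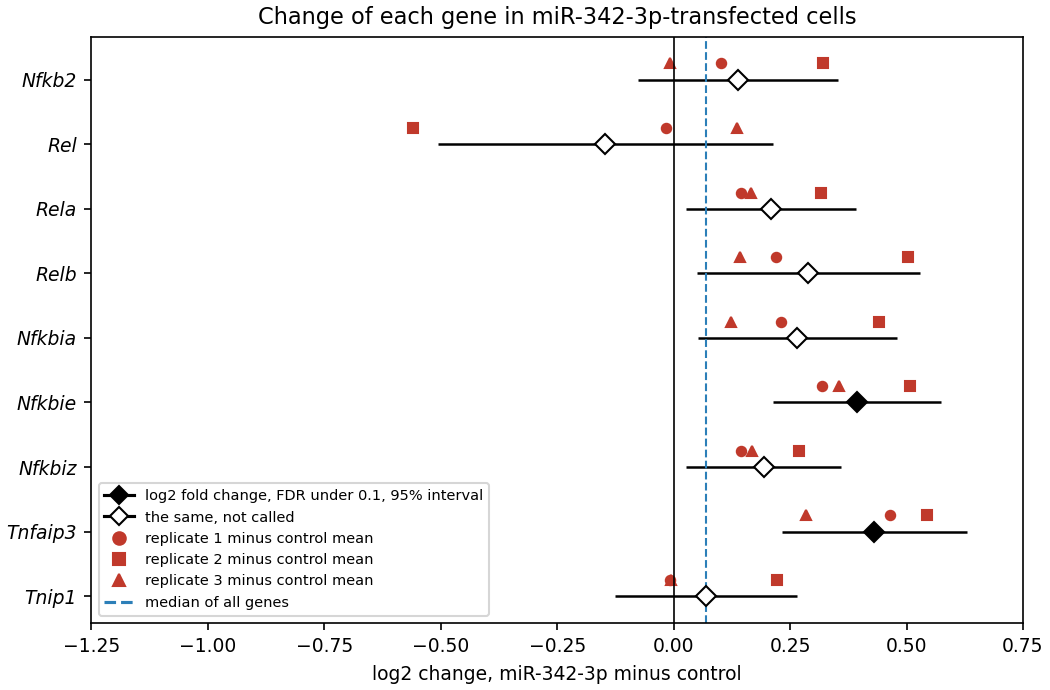
Log2 change of each gene, miR-342-3p minus control. Diamonds are log2 fold changes with 95% intervals, filled where the FDR is under 0.1, red symbols are the 3 miR-342-3p arrays minus the control mean, and the dashed line is the median of all genes (0.069). Only Tnfaip3 (0.43) and Nfkbie (0.39) are filled, and replicate 2 is farthest to the right for every gene but Rel.

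As a list, the 9 genes had a median log2 fold change of 0.21, against 0.069 over all genes tested. The estimate was positive for 8 of 9 genes, and for 64.5% of all genes. For 6 of the 9 the groups did not overlap, all with miR-342-3p above control, where 21.4% of all genes were so placed and 36.9% were separate in either direction. The inhibitors, with Nfkbiz counted among them, had a median of 0.27 and the subunits of 0.17. The difference between the inhibitors and the subunits was not tested. Over the alternative fits 0 to 6 of the 9 genes were called: 0 without any 1 control array and by the methods' t-test, 2 when arrays were centred on a median, and 6 when quantile normalization was repeated. Of all 19938 genes these fits called 88 to 100, 26, 408 or 376, and 1414 higher, in that order. With all arrays and limma 825 were higher, and 2 of the 9 genes were called. The count of the 9 genes did not follow that of all genes throughout. It stayed at 2 under either centring and at an FDR under 0.05, where 312 of all genes were higher.

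The miR-342-3p arrays did not contribute equally. Replicate 2 gave the highest value of the 3 in 8 of the 9 genes, whereas it was highest in 31.9% of all genes. Replicates 1 and 3 each gave the lowest value in 4 genes. The median change from the control mean was 0.14 in replicate 1, 0.32 in replicate 2 and 0.14 in replicate 3. Over all genes these medians were 0.11, 0.036 and 0.025. The control arrays were tight (correlations of at least 0.9982 across genes, which are not independent replicates), whereas the miR-342-3p arrays correlated at 0.9909 to 0.9926 with each other. On the first principal component replicate 3 (0.85) lay between the controls (-18.71 to -15.79) and replicates 1 and 2 (28.67 and 20.85). Without replicate 3 the NF-κB genes called were Nfkbia, Nfkbie, Relb and Tnfaip3. Over all genes that fit called 2104 higher and 2422 lower, against 825 and 1479 with all arrays. The part of the unequal arrays in these results was not tested.

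**Figure D3:**
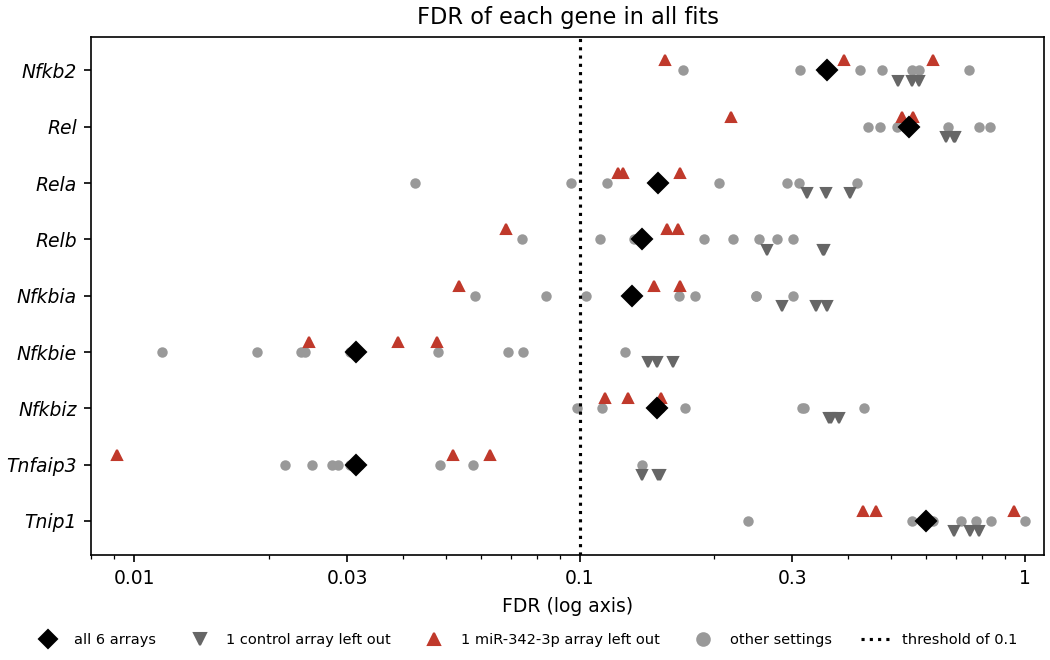
FDR of each gene (log axis) with all 6 arrays (diamonds), with 1 control array left out (grey triangles), with 1 miR-342-3p array left out (red triangles) and under the other settings (circles); the dotted line is the threshold of 0.1. Tnfaip3 and Nfkbie lie left of the line with all 6 arrays (FDR = 0.0315 each) and right of it without any 1 control array. Over all genes the fits without 1 control array called 88 to 100 higher, against 825 with all 6 arrays.

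The cells carried the markers of their label. The macrophage genes Cd68, Lyz2, Csf1r and Spi1 stood at percentiles 97.3 to 99.8 of all genes on the control arrays, a rough rank because probe sets differ in brightness (log2 values 12.68, 12.38, 11.39 and 11.52), while Adgre1, which encodes the surface antigen F4/80, was at 7.49, and Mrc1 and Cd36 were low (5.75 and 3.97). Of 13 macrophage markers Spi1 and Mertk were higher and Itgam and Fcgr1 lower in miR-342-3p-transfected cells. That is 30.8% called, beside 11.6% over all genes (4.14% higher and 7.42% lower). The mean log2 value of the list spanned 9.87 to 9.89 in control and 9.79 to 9.91 in miR-342-3p arrays. Of 8 fibroblast markers 1, Pdgfra, was higher (log2 fold change 0.49, limma FDR = 0.031), or 12.5% called, near the 11.6% of all genes. The mean level of the fibroblast markers was 6.54 to 6.61 in control and 6.67 to 6.97 in miR-342-3p arrays. None of 8 lymphocyte markers was called by limma (1 at an unadjusted p under 0.05). The part of these shifts in the NF-κB results was not tested. As RNA came from whole wells, more cells with a transcript and more transcript per cell cannot be told apart.

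The rest of the pathway moved in both directions. Of 106 other genes with a probe set, listed by role as further inhibitors, kinases and adaptors, receptors and target genes, 14 were higher, 6 lower and 86 not called. That is 18.9% called, beside 11.6% over all genes (4.14% higher and 7.42% lower). Their median log2 fold change was 0.067, close to the 0.069 of all genes. Of these 20 calls, 4 held with any 1 of the 6 arrays left out, Tnip3 missed the threshold without control replicate 1 only, and 15 missed it without any 1 control array. Socs1, Irak2, Ccl5, Cul1 and Malt1 also missed it without miR-342-3p replicate 1 or 2, and Socs1, Irak2, Ccl5, Tirap, Tnfrsf1b and Tnfaip2 when each array was centred on its median. Over all genes the fits without 1 control array called 88 to 100 higher and 102 to 140 lower, against 825 and 1479.

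Among 19 further inhibitors, 2 were higher and 1 lower, or 15.8% called beside 11.6% over all genes. Bcl3, a nuclear IκB protein that binds p50 and p52 dimers, rose by a log2 value of 0.39 (standard error 0.073, limma FDR = 0.0255), close in size to that of Nfkbie. Socs1, a feedback inhibitor of cytokine signaling, was at 0.29 (FDR = 0.0927), near the threshold. Tnip3, which encodes ABIN3, an A20-binding relative of ABIN1, was the lower one, with values of 11.47 in control and 10.80 in miR-342-3p-transfected cells (log2 fold change -0.67, standard error 0.11, limma FDR = 0.0173). It moved opposite to Tnfaip3. Nfkbib, which encodes IκBβ, was at 0.069 (FDR = 0.562).

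Of 34 kinases, ubiquitin ligases and adaptors, 3 were higher and 3 lower, or 17.6% called beside 11.6%. Ikbkg encodes NEMO, the regulatory subunit of the IκB kinase, and was higher (log2 fold change 0.44, limma FDR = 0.031). The Toll-like receptor adaptor Tirap (0.35, FDR = 0.0531) and the kinase Irak2 (0.37, FDR = 0.0969) were higher as well. Tab2, which links ubiquitin chains to the kinase TAK1, was lower (-0.42, FDR = 0.0355). So were Cul1, the scaffold of the ligase that marks IκB for degradation (-0.39, FDR = 0.0895), and Malt1, a scaffold protease (-0.38, FDR = 0.0703). The catalytic kinase subunit Ikbkb had a log2 fold change of -0.11 (FDR = 0.389) and Map3k14, the kinase NIK of the noncanonical pathway, of 0.29 (FDR = 0.139). Chuk was not analysed here.

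Of 17 receptors, Tnfrsf1b, the second receptor of tumor necrosis factor, was higher (log2 fold change 0.33, limma FDR = 0.077) and 16 did not pass the test, so that 5.88% were called, less than the 11.6% of all genes. Tlr4, the receptor of lipopolysaccharide, was at 0.024 (FDR = 0.891, chosen after its value was seen).

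Among these lists the target genes of NF-κB held the largest changes. Of 36 measured, 8 were higher, 2 lower and 26 not called, or 27.8% called beside 11.6% over all genes (4.14% higher and 7.42% lower). The median log2 fold change was 0.19, and 18 lay above the controls on all miR-342-3p arrays, as did 21.4% of all genes. The chemokine genes Cxcl10 (log2 fold change 1.54, standard error 0.19, limma FDR = 0.00876) and Cxcl2 (1.06, FDR = 0.00311) led, followed by the early response gene Ier3 (0.83, FDR = 0.0108), the cyclooxygenase gene Ptgs2 (0.76, FDR = 0.00847) and the growth factor gene Csf1 (0.67, FDR = 0.0215). Cxcl10, Cxcl2, Ier3 and Ptgs2 were the calls that held with any 1 array left out, unlike those of Tnfaip3 and Nfkbie. Ccl5, Ehd1 and Tnfaip2 completed those higher (named after their values were seen). In contrast, the chemokine gene Ccl2 (-0.31, FDR = 0.0476) and the cyclin gene Ccnd1 (-0.24, FDR = 0.0799) were lower. Tnf (0.28, FDR = 0.139), Icam1 (0.27, FDR = 0.137) and Il1b (0.20, FDR = 0.145) lay above the controls on every miR-342-3p array without passing the test. Il1b was low among them, at 6.19 in control cells (percentile 30 of all genes, against 94.3 for Tnf and 82.7 for Icam1). Il6 was dim, at 3.02 in control cells, and its log2 fold change was 0.0084 (FDR = 0.954). Many of these genes also respond to interferon and stress signals, and the list is not a measure of NF-κB alone. It was also chosen with earlier results of these data known, so its counts are not independent evidence.

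**Figure D4:**
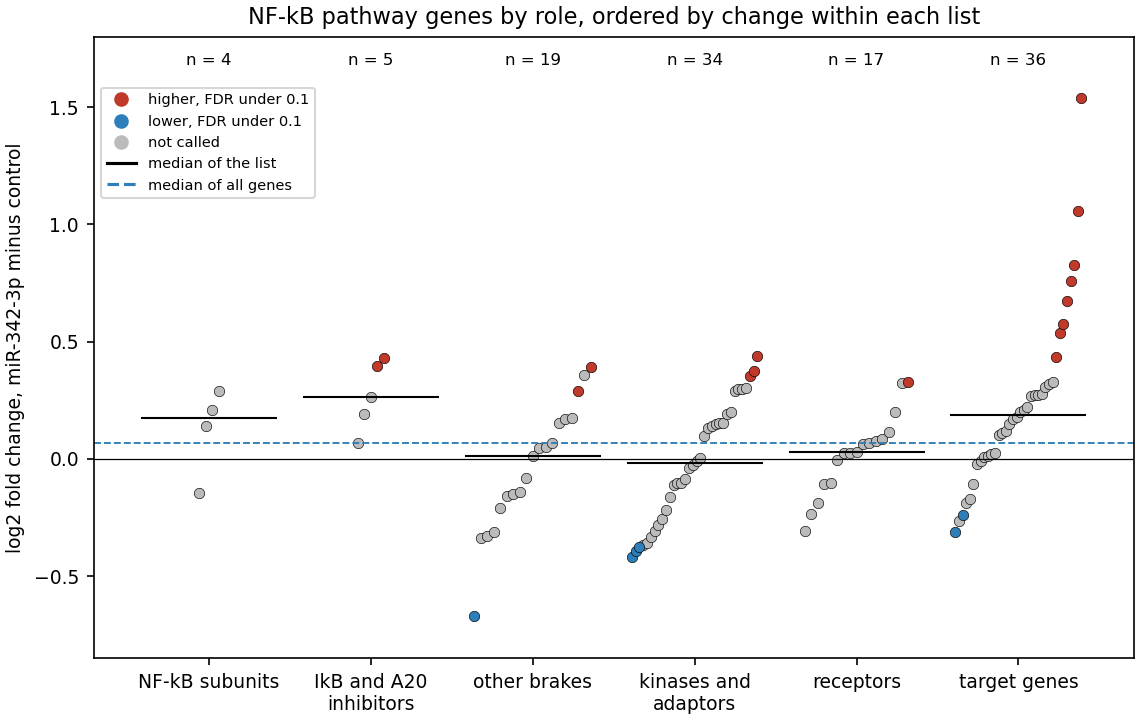
Log2 fold change (miR-342-3p minus control) of the NF-κB subunits and inhibitors and of the 4 other lists, with 1 dot per gene ordered by its change within a list, red where higher and blue where lower at an FDR under 0.1, black lines at the list medians and a dashed line at the median of all genes. The subunit and inhibitor medians (0.17 and 0.27) and that of the target genes (0.19) lie above the dashed line (0.069), and those of the other lists below it.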

How the data were processed

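Gene expression was compared between RAW264.7 cells transfected with a miR-342-3p mimic and with a negative control mimic, 3 arrays each, with groups and replicate numbers read from the sample titles. The authors ran RMA on the array scans and deposited log2 values, 1 for each of 35556 probe sets and array, unfiltered (RMA version not given in the sources used here).

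Of the probe sets, 21789 were assigned to 1 gene in the platform annotation, 1621 to several (not used) and 12146 to none listed. For 999 genes with several probe sets the one of largest interquartile range across the arrays was kept, as the methods of the study state. The 19938 genes were fitted together with limma 3.58.1 (lmFit and eBayes, R 4.3.3, 4.79 prior and 4 residual degrees of freedom), and p-values were adjusted by Benjamini and Hochberg over all of them. No filter on level was applied. Precision depends on the number of arrays, as these have no read depth.

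The NF-κB genes, the role lists, the markers and the rule for the genes named were chosen with earlier results of these data known. The rule takes all NF-κB members, up to 5 called genes with the largest rise and fall of each role list, and 11 genes whatever their result. Tlr4, Ccl5, Ehd1, Tnfaip2 and single markers of cell types were named outside it, after their values were seen. Of the genes listed, those without a single-gene probe set were not analysed here. The alternatives tried were a block for the replicate number, leaving out each array, other probe sets, scalings, priors and weights, a filter, a stricter threshold and the methods' t-test. Promoter and microRNA sequences are from RefSeq (GRCm38.p6). Replicate numbers were not taken as pairs of arrays, and the labels do not say whether they are. Figures were drawn with matplotlib 3.10.9.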

Additional observations from a re-analysis of the deposited data

How the results depend on the processing

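Tnfaip3 and Nfkbie were called in 12 of 16 alternative fits each, with log2 fold changes of 0.36 to 0.51 and 0.32 to 0.47, always upward. They were not called without any 1 control array or by the methods' t-test (FDR = 0.138 and 0.126). Of the NF-κB genes 0 to 4 were called higher when 1 array was left out, 6 when quantile normalization was repeated (Nfkbia, Nfkbiz, Rela and Relb in addition), 4 with the trend and robust prior (Nfkbia and Rela in addition) and 0 with the methods' t-test, which gave 4 at its own threshold without adjustment, beside 20.2% of all genes. None was called lower in any fit. Without miR-342-3p replicate 2 the estimate of Rel was 0.060 and that of Tnip1 -0.0067, and with 1 array left out they ranged from -0.29 to 0.060 and from -0.0067 to 0.11. Tnip1 was at -0.00096 when arrays were centred on the median of the genes tested, an alternative chosen after seeing the data.

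Over all genes 825 were higher and 1479 lower. The higher count was 408 when each array was centred on its median, 376 when centred on the median of the genes tested, 1414 with repeated quantile normalization, 26 with the methods' t-test and 312 at an FDR under 0.05. The lower count was 22 with the methods' t-test and 661 at an FDR under 0.05. The share of lower among called genes was 64.2%, and 77.2%, 84.2% and 50.7% under these scalings in the same order. Leaving out 1 control array gave 88 to 100 higher and 102 to 140 lower. Leaving out 1 miR-342-3p array gave 675 to 2104 higher and 986 to 2422 lower. Of the other pathway genes 14 were higher and 6 lower. The higher count was 8 under either centring, 25 with repeated quantile normalization, 1 with the methods' t-test and 8 at an FDR under 0.05. The lower count was 1 and 3 in the last pair. Leaving out 1 array gave 4 to 29 higher and 0 to 18 lower. The cause was not tested. With the replicate number as a block 2 NF-κB genes were called higher, Tnfaip3 and Nfkbie again, and none lower, with 13 and 5 other pathway genes and 550 and 1445 of all genes. Deviations of same-numbered arrays correlated at -0.308 to -0.106, so the numbers were not taken as pairs. Resting on 3 arrays per group, these correlations cannot settle whether the arrays were paired.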
